A study of Mus musculus with 8 samples.

Results

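CD4+ CD25+ T cells from the spleen of Id2-deficient (KO) mice were compared with the same gate from wild-type (WT) mice across all genes. The comparison rests on 4 of the 8 libraries of the series, WT spleen 2, WT spleen 3, KO spleen 2 and KO spleen 3, and the other 4 libraries come from visceral adipose tissue. Of 45232 gene rows, 19386 were above 0 in at least 1 spleen library, and 11780 reached 1 TPM, a length-corrected share of all transcripts, in at least 2 of the 4 and were tested. All mice were C57BL/6, and the genotype of the KO libraries is given as Id2 CKO. The sources used here name no Cre driver, deleted part of Id2, age of the mice or pooling. Cells were sorted from each spleen sample, with a minimum of 500 cells, and cDNA was made with an ultra-low-input kit. The numbers 2 and 3 are called experiments in the file headers, so each experiment holds 1 WT and 1 KO library. Whether both libraries of a genotype are from different animals is not stated, and a p-value here speaks only of how these 4 libraries vary, which may be a technical matter.

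Id2 is a helix-loop-helix protein that lacks a DNA-binding region. It pairs with E proteins, the transcription factors encoded by Tcf3, Tcf4 and Tcf12, and keeps them from binding the E-box motif. E proteins and their Id inhibitors set the course of lymphocyte development, and Id2 and Id3 restrain follicular helper type programs in T cells. CD4 together with CD25, the alpha chain of the interleukin-2 receptor, sorts a population in which regulatory T cells (Tregs), with their lineage factor Foxp3, are abundant. Activated conventional CD4+ T cells also carry CD25.

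Id2 was at 274 TPM in WT spleen 2, 346 TPM in WT spleen 3, 72.1 TPM in KO spleen 2 and 265 TPM in KO spleen 3. Both KO values lay below both WT values, but the library labelled KO spleen 3 was only 9.48 TPM below WT spleen 2. The KO minus WT difference on the log2(TPM + 1) scale was -1.91 in experiment 2 and -0.38 in experiment 3. Over the 4 libraries it was -1.15 (SE 0.515), which did not pass limma's test (adjusted p = 1.0). Without KO spleen 2 the difference was -0.22, and without KO spleen 3 it was -2.08 with a limma adjusted p of 2.21e-05. The table gives 1 value per gene, so transcript that lacks a deleted exon would still be counted, and this gene is a limited check of the labels. For every direction given here, the libraries are therefore those labelled KO.

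The gate was checked against marker lists, which are drawn in the plot of markers by library. T cell markers summed to between 10244 and 13240 TPM in the 4 libraries. Their median level on the log2(TPM + 1) scale was 8.18 in KO spleen 2 and 8.78 to 9.35 in the other libraries. Foxp3 stood at 169 and 266 TPM in WT, at 8.27 TPM in KO spleen 2 and at 226 TPM in KO spleen 3. Thus 1 KO spleen library stood far below the other 3 spleen libraries. The adipose KO library of the same experiment, KO adipose 2, was also low in Foxp3, at 7.40 TPM. KO adipose 3 stood at 98.4 TPM and the WT adipose libraries at 126 and 93.5 TPM. A 20-gene list of Treg identity genes summed to 5828 TPM in KO spleen 2, against 5849 TPM in KO spleen 3 and 6875 and 6253 TPM in WT. The median level of its members was lowest in KO spleen 2. On the log2(TPM + 1) scale it was 5.80 there, against 7.17 in KO spleen 3 and 6.85 and 7.39 in WT. Macrophage markers summed to 687 and 207 TPM in WT and to 17.5 and 157 TPM in KO. Erythroid markers, mostly hemoglobin, summed to 15729 and 46858 TPM in WT and to 1198 and 108314 TPM in KO. B cell markers followed the experiment, at 465 and 411 TPM in experiment 2 and 88.6 and 89.7 TPM in experiment 3. Granulocyte markers summed to at most 1.97 TPM and stromal and endothelial markers to at most 1.16 TPM. In sorted bulk cells, fewer cells of a type and less RNA per cell cannot be told apart. KO spleen 2 had 14946 genes above 0, against 15575 to 16822 in the other 3. All 16 housekeeping genes were above 0 in each of the 4. Platelet markers summed to 8.09 and 19.5 TPM in WT and to 0.173 and 23.7 TPM in KO. CD8 and natural killer markers summed to 296 and 421 TPM in WT and to 963 and 311 TPM in KO. In KO spleen 2, Nkg7 alone made up 932 TPM of that sum. KO spleen 2 therefore stands apart, low in Foxp3, Id2 and macrophage, erythroid and platelet markers and high in the CD8 and natural killer sum.

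**Figure D1:**
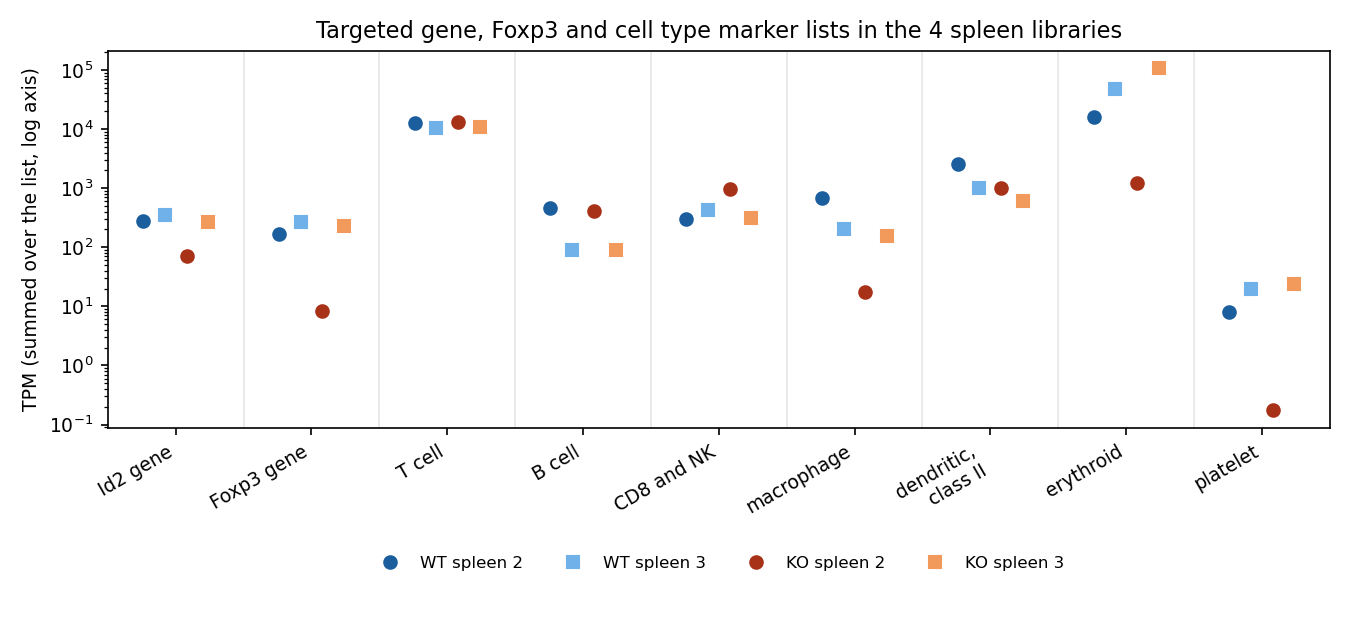
TPM of Id2, of Foxp3 and of the summed cell type marker lists (x axis) in each of the 4 spleen libraries, on a log axis. T cell markers lie between 10244 and 13240 TPM in all 4, while KO spleen 2 is lowest for Id2 (72.1 TPM), Foxp3 (8.27 TPM) and macrophage markers (17.5 TPM).

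Across the 11780 genes, the differences between genotypes were of about the same size as those between libraries of 1 genotype. The SD over genes of the KO minus WT difference was 0.74 in experiment 2 and 0.48 in experiment 3. Between experiments 3 and 2 it was 0.71 within WT and 0.86 within KO. The differences found in the 2 experiments hardly went together across genes, as the plot of within-experiment differences shows: Pearson's r over 11780 genes was 0.034, and 49.2% of genes had the same sign in both. Genes are not independent replicates, and this r is a description. A difference of at least 1 log2 unit was seen for 1601 genes in experiment 2 and 507 genes in experiment 3, and for 121 of them in both with the same sign. Values were on balance lower in KO, with a median difference over all genes tested of -0.13, made up of -0.24 in experiment 2 and -0.02 in experiment 3. Centring each library on its median moved the overall median to 0.09. Both differences were below 0 for 3971 genes (33.7% of those tested) and above 0 for 1822 genes (15.5%). The KO values lay above both WT values for 672 genes (5.7%) and below both for 1620 genes (13.8%). Counts of list members are read against these shares.

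**Figure D2:**
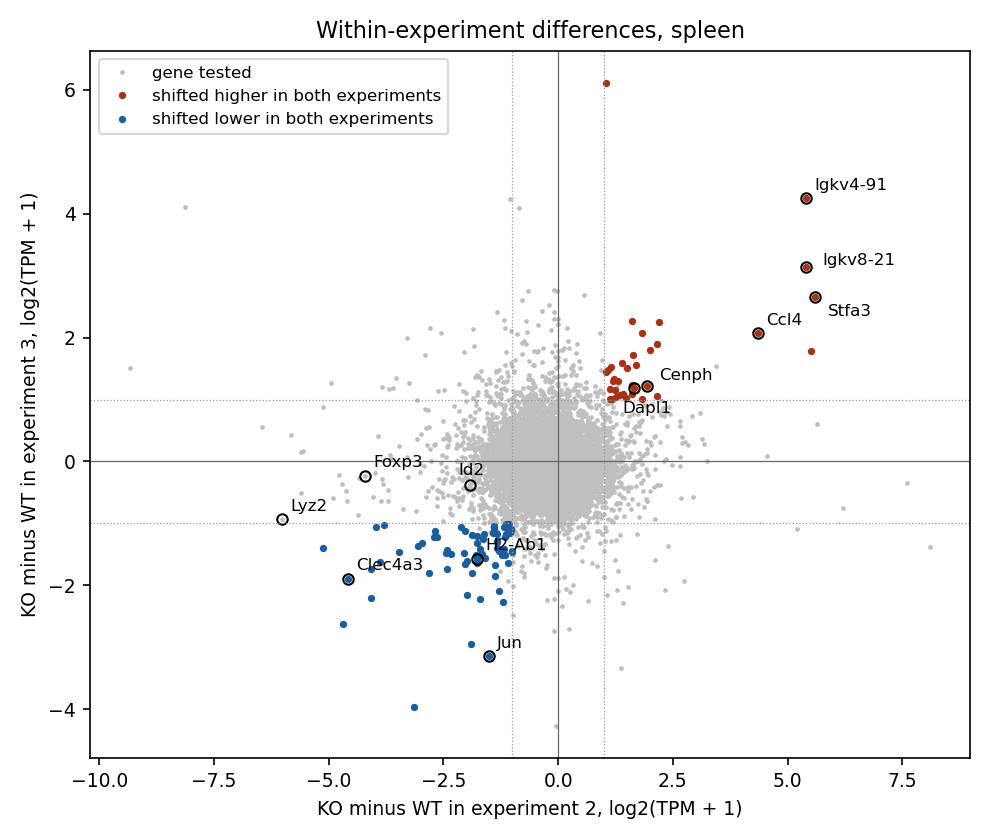
KO minus WT difference of log2(TPM + 1) in experiment 2 (x axis) and experiment 3 (y axis), with 1 point per gene tested and dotted lines at 1 log2 unit. The cloud is wider along experiment 2 (SD 0.74) than along experiment 3 (SD 0.48) and shows no common slope (r = 0.034), and red and blue points are the 35 genes shifted higher and 72 shifted lower in both experiments.

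limma's test passed 2 of 11780 genes (0.017%) at an adjusted p below 0.05, both higher in KO, while 223 genes (1.89%) had an unadjusted p below 0.05. Both are variable segments of the immunoglobulin kappa light chain, which B cells and plasma cells join to a J segment to make an antibody light chain. They were chosen for description after their values were seen. The start of each transcript is shown because the 2 genes called are members of a large family of near copies and its letters show how far reads could be told apart. Capitals mark bases within at least one 30-base stretch that no other GENCODE M21 gene holds.
Igkv4-91: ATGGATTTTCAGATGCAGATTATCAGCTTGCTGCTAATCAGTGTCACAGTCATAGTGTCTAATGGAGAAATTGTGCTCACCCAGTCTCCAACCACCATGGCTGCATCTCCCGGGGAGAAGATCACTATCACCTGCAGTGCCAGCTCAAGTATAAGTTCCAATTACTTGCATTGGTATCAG
Igkv8-21: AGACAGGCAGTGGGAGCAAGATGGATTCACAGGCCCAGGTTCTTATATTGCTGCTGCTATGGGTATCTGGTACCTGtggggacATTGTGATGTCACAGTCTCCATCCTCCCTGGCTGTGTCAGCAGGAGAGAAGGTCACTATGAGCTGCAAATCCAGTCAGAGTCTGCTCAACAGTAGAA
In GRCm38, Igkv4-91 lies on the minus strand of chromosome 6 from 68768555 to 68769103, and Igkv8-21 on the same strand from 70314895 to 70315472. Over the whole transcript, 11.6% of the 30-base stretches of Igkv4-91 also occur in other genes (25 genes), and 49.9% of those of Igkv8-21 (19 genes). The sources used here do not say how such reads were split by the authors' counting, so both values are uncertain.

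Igkv4-91 was listed at 0 in both WT libraries and was at 41.1 TPM in KO spleen 2 and 18.0 TPM in KO spleen 3. Its difference was 4.82 log2 units (SE 0.629, limma adjusted p = 0.00958). Igkv8-21 was listed at 0 in WT spleen 2 and was at 0.988 TPM in WT spleen 3, 41.3 TPM in KO spleen 2 and 16.6 TPM in KO spleen 3. Its difference was 4.27 log2 units (SE 0.655, limma adjusted p = 0.036), and it was 3.78 with an adjusted p of 0.104 without WT spleen 2. With either KO library left out, neither segment reached 1 TPM in 2 of the remaining libraries, so neither was tested. Both segments thus passed the filter only through the KO libraries. With no filter the limma adjusted p was 0.9999 for each. With quantile normalization it was 0.631 for Igkv4-91 and 0.863 for Igkv8-21. With libraries centred on their medians it was 0.245 and 0.435. Other segments went the other way: Igkv1-135, also named after its values were seen, stood at 67.4 and 14.6 TPM in WT against 6.78 and 0 TPM in KO (-3.55, limma adjusted p = 0.718, with the block for the experiment 0.000895). The B cell marker Cd79a, a chain of the B cell receptor, stood at 204 and 10.1 TPM in WT against 160 and 20.2 TPM in KO, and plasma cell markers summed to 123 and 88.4 TPM in WT and 105 and 104 TPM in KO. The part of B lineage RNA in these 2 calls was not tested. The number called also depended on single libraries: limma called 4 genes without WT spleen 2, 21 without WT spleen 3, 38 without KO spleen 2 and 219 without KO spleen 3.

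With the experiment as a block, limma called 16 genes, 8 higher and 8 lower in KO, among them the same 2 kappa segments. Its unadjusted p was below 0.05 for 666 genes. The genes called only with the block, named here after their values were seen, include genes of cytokines and of myeloid cells. Ccl4, a chemokine that T cells and macrophages release on activation, stood at 6.43 and 1.60 TPM in WT against 150 and 9.95 TPM in KO (limma adjusted p with the block = 0.0109, without it 1.0). Ccl1, a ligand of the receptor Ccr8 on Tregs and type 2 helper cells, stood at 0 and 0.892 TPM in WT against 44.7 and 5.49 TPM in KO (0.0306 with the block, 0.351 without). Both chemokines were highest in KO spleen 2, at 15.1 times (Ccl4) and 8.13 times (Ccl1) their level in KO spleen 3. Spp1, the secreted cytokine osteopontin, stood at 6.20 and 0.275 TPM in WT against 76.5 and 2.69 TPM in KO, so the groups overlapped and only the within-experiment differences had 1 sign (0.0442 with the block). Without KO spleen 2 the difference was 1.32 for Ccl4, beside 3.21 over the 4 libraries, and 0.29 for Spp1, beside 2.48. Stfa3, a stefin that inhibits cysteine proteases, stood at 0.537 and 0.183 TPM in WT against 73.8 and 6.46 TPM in KO (0.00412 with the block, 0.260 without). Clec4a3, a lectin receptor of myeloid cells, stood at 23.0 and 9.33 TPM in WT against 0 and 1.78 TPM in KO (0.0245 with the block, 0.336 without). The others are receptor segments, predicted genes and a clone-named gene. Among them was Trav20, listed at 0 in both WT libraries and at 3.61 and 3.75 TPM in KO (0.0390 with the block, 0.853 without). Ccl1, Stfa3 and Trav20 were below 1 TPM in both WT libraries, so they passed the filter only through the KO libraries.

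A stricter description than the sign counts asked for a difference of at least 1 log2 unit in each experiment, in 1 direction and with no overlap between groups. It held for 35 genes higher in KO (0.297% of those tested) and 72 lower (0.611%). Of the 35, 9 were antigen receptor segments and 4 predicted genes or clones, which leaves 22 other genes. Of the 72, 6 were receptor segments and 35 predicted genes or clones, which leaves 31. The shares of these classes among all genes tested are not given here, so the counts do not show an excess of either class. After each library was centred on its median, the counts were 47 higher and 41 lower. Most were weakly expressed: 7 of the 35 and 20 of the 72 were at 10 TPM or more in both libraries of the higher group. After receptor segments and predicted genes are left out, 3 of these were higher and 7 were lower, and none of these 10 passed limma's test over all genes (adjusted p from 0.853 to 1.0). Their values are drawn in the plot of named genes.

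The 3 genes higher in KO were Cenph, Dapl1 and Fasl. Cenph, a subunit of the inner kinetochore, stood at 4.44 and 6.77 TPM in WT against 19.7 and 17.0 TPM in KO (log2 difference 1.57, SE 0.554). Dapl1, whose transcript is known from naive and resting T cells, stood at 13.3 and 13.9 TPM in WT against 44.2 and 33.0 TPM in KO (1.43, SE 0.477). Fasl, the death ligand that cytotoxic and activated T cells use to kill Fas-bearing cells, stood at 6.94 and 7.09 TPM in WT against 34.4 and 15.9 TPM in KO (1.61, SE 0.555). The WT values were close together in Dapl1 and Fasl, and less so in Cenph. The lower KO value was 2.52 times the higher WT value in Cenph, 2.38 times in Dapl1 and 2.24 times in Fasl. The 3 genes were chosen for such a gap, so these ratios describe the choice and are not added support.

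**Figure D3:**
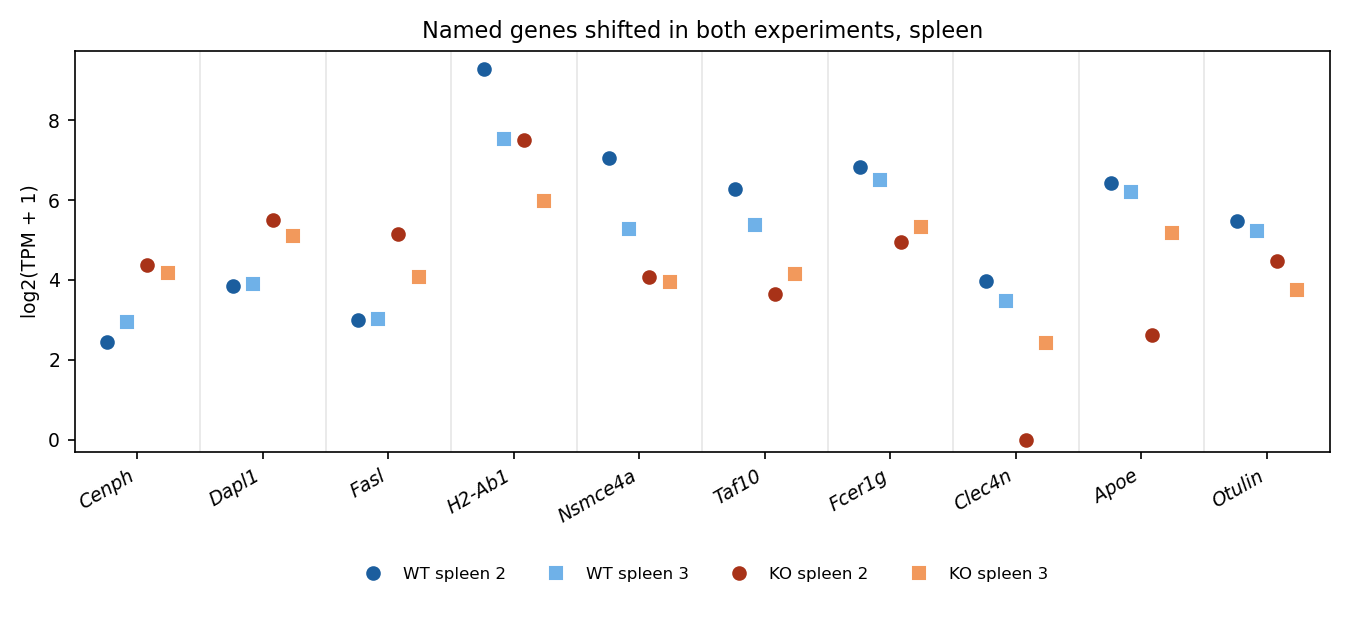
log2(TPM + 1) in each of the 4 spleen libraries for the 10 named genes with a difference of at least 1 log2 unit in both experiments (x axis). In the first 3 genes both KO points lie above both WT points, and in the other 7 both lie below, with the narrowest gap in H2-Ab1 (184 TPM in WT spleen 3, 181 TPM in KO spleen 2).

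Of the 7 genes lower in KO, 4 belong to antigen-presenting and myeloid cells. H2-Ab1, the beta chain of the class II molecule that shows peptides to CD4+ T cells, stood at 617 and 184 TPM in WT against 181 and 61.4 TPM in KO (-1.67, SE 0.566). Fcer1g, the signaling chain of Fc receptors, stood at 112 and 90.3 TPM in WT against 29.6 and 38.9 TPM in KO (-1.54, SE 0.425). Clec4n, the fungal sensor Dectin-2 of myeloid cells, stood at 14.7 and 10.2 TPM in WT against 0 and 4.33 TPM in KO (-2.52, SE 0.735). Apoe, the lipid carrier that macrophages secrete, stood at 84.2 and 71.9 TPM in WT against 5.16 and 34.8 TPM in KO (-2.41, SE 0.629). The lowest value was in KO spleen 2 for Fcer1g, Clec4n and Apoe, and in KO spleen 3 for H2-Ab1.

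The other 3 are housekeeping or signaling genes. Nsmce4a, a subunit of the Smc5-Smc6 complex that acts in DNA repair, stood at 131 and 37.6 TPM in WT against 16.0 and 14.4 TPM in KO (-2.14, SE 0.543). Taf10, a subunit of the general transcription factor TFIID and of the SAGA complex, stood at 76.7 and 40.6 TPM in WT against 11.5 and 16.8 TPM in KO (-1.93, SE 0.490). Otulin, the enzyme that removes linear ubiquitin chains and so restrains NF-kappaB signaling, stood at 43.6 and 36.4 TPM in WT against 21.1 and 12.5 TPM in KO (-1.24, SE 0.481). The WT spread of Nsmce4a was wide, with WT spleen 2 at 3.49 times WT spleen 3, and its KO values were close together.

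Predicted genes made up 35 of the 72 genes lower in both experiments, and 8 of them were at 10 TPM or more in both WT libraries. Their share among all genes tested is not given here, so the 35 are not read as an excess. Of these 8, 4 (Gm10718, Gm10800, Gm21738 and Gm26870) hold a common 30-base stretch that occurs in 13 GENCODE genes, and they are named here after their values were seen. The stretch is in capitals within 120 bases of the Gm10800 transcript, shown because reads from it cannot be assigned to 1 gene.
Gm10800: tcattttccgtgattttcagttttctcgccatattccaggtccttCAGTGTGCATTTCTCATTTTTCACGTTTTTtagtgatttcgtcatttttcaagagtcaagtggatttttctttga
Gm10800 lies in GRCm38 on the minus strand of chromosome 2 from 98666547 to 98667301, and the bases printed are 122 to 241 of its transcript. It stood at 371 and 93.3 TPM in WT against 9.68 and 34.7 TPM in KO. Gm26870 stood at 36.9 and 56.6 TPM in WT against 3.59 and 21.4 TPM in KO. With the experiment as a block, limma called Gm10718 (adjusted p = 0.00753, without the block 0.167) and Gm21738 (0.0306, without it 0.336), both lower in KO. The 4 genes share sequence, so they are not 4 separate observations, and KO spleen 2 was the lowest library for each.

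Macrophage markers summed to less in both KO libraries than in either WT library, and to least in KO spleen 2. All 13 tested macrophage markers had a negative difference, with a median of -1.54 beside -0.13 over all genes. The KO values lay below both WT values for 10 of the 13 (against 13.8% of all genes tested), and the difference was negative in both experiments for 10 (against 33.7% of all genes tested). None passed limma's test (adjusted p from 0.816 to 1.0), nor with the block (lowest adjusted p = 0.119). Lyz2, the lysozyme of myeloid cells, stood at 443 and 26.1 TPM in WT against 5.90 and 13.2 TPM in KO. C1qb, a chain of the complement component C1q made by macrophages, stood at 72.3 and 57.3 TPM in WT against 0.497 and 39.8 TPM in KO. The partner chain C1qc stood at 36.9 and 18.8 TPM in WT against 0.876 and 15.5 TPM in KO, and C1qa stood at 16.5 and 14.1 TPM in WT against 0.195 and 8.65 TPM in KO. Csf1r, the receptor for the growth factor that keeps macrophages alive, stood at 8.30 and 9.71 TPM in WT against 0.450 and 3.90 TPM in KO. The list median was -2.68 in experiment 2 and -0.45 in experiment 3, and -0.59 over the libraries without KO spleen 2. These genes define cells outside the CD4+ CD25+ gate, and their part in the other differences was not tested.

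Class II genes are made by B cells, macrophages and dendritic cells, and in mice not by resting T cells. All 4 genes of the class II set among the dendritic cell markers were lower in KO within each experiment. H2-Aa, the class II alpha chain, stood at 368 and 101 TPM in WT against 172 and 26.0 TPM in KO. H2-Eb1, the beta chain of the second class II molecule, stood at 263 and 85.4 TPM in WT against 119 and 29.6 TPM in KO. Cd74, the invariant chain that guides class II molecules to the endosome, stood at 1052 and 501 TPM in WT against 338 and 357 TPM in KO. For H2-Aa and H2-Eb1 the groups overlapped, with both genotypes higher in experiment 2, as B cell markers were. Among the other dendritic cell markers, Itgax, Siglech, Clec9a, Flt3, Cd209a and Xcr1 were at most 0.678 TPM in any of the 4 libraries. Zbtb46, Bst2 and Ccr9 passed the filter of 1 TPM in at least 2 of the 4. For all 7 tested genes of the dendritic cell list the median difference was -1.06, and it lay between -1.86 and -0.53 when any 1 library was left out.

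Class II genes share a promoter element, the Y box, to which the factor NF-Y binds. RefSeq windows from 250 bases before to 50 bases after the start (GRCm38.p6) were held for H2-Aa and H2-Eb1. They are shown because these genes were lower together within each experiment, with the letters CTGATTGG, searched on both strands, in capitals.
H2-Aa: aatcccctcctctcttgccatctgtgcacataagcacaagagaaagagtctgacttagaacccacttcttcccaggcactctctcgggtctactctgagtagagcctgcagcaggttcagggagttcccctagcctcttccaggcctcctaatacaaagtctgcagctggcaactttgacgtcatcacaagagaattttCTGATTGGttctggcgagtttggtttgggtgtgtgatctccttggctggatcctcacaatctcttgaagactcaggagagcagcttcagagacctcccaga
H2-Eb1: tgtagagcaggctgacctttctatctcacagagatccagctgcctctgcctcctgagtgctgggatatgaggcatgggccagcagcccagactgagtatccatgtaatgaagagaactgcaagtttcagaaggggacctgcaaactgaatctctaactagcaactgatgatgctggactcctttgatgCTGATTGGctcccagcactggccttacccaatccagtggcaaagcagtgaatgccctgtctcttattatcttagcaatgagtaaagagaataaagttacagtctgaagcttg
The H2-Aa window is chr17:34287774-34288073 on the minus strand and the H2-Eb1 window chr17:34305617-34305916 on the plus strand. Each holds the motif once, and 4.10% of all 32851 promoter windows and 6.00% of the 10668 windows of tested genes hold it. The motif contains the reverse complement of CCAAT, which 37.4% of all windows hold.

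CD8 and natural killer markers did not move as 1 group. Cd8a, the CD8 alpha chain, stood at 11.3 and 5.64 TPM in WT against 1.31 and 0.983 TPM in KO. Cd8b1, the CD8 beta chain, stood at 54.0 and 46.5 TPM in WT against 24.5 and 25.2 TPM in KO. Both CD8 chains were lower in each KO library, while 2 of the 7 tested markers had a positive difference. Nkg7, a granule protein of cytotoxic lymphocytes, stood at 208 and 358 TPM in WT, at 932 TPM in KO spleen 2 and at 276 TPM in KO spleen 3. Klrd1, the CD94 chain of natural killer receptors, stood at 0 and 1.18 TPM in WT against 1.77 and 3.42 TPM in KO. None of the 7 passed limma's test (adjusted p = 1.0 for each of the 4 named).

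**Figure D4:**
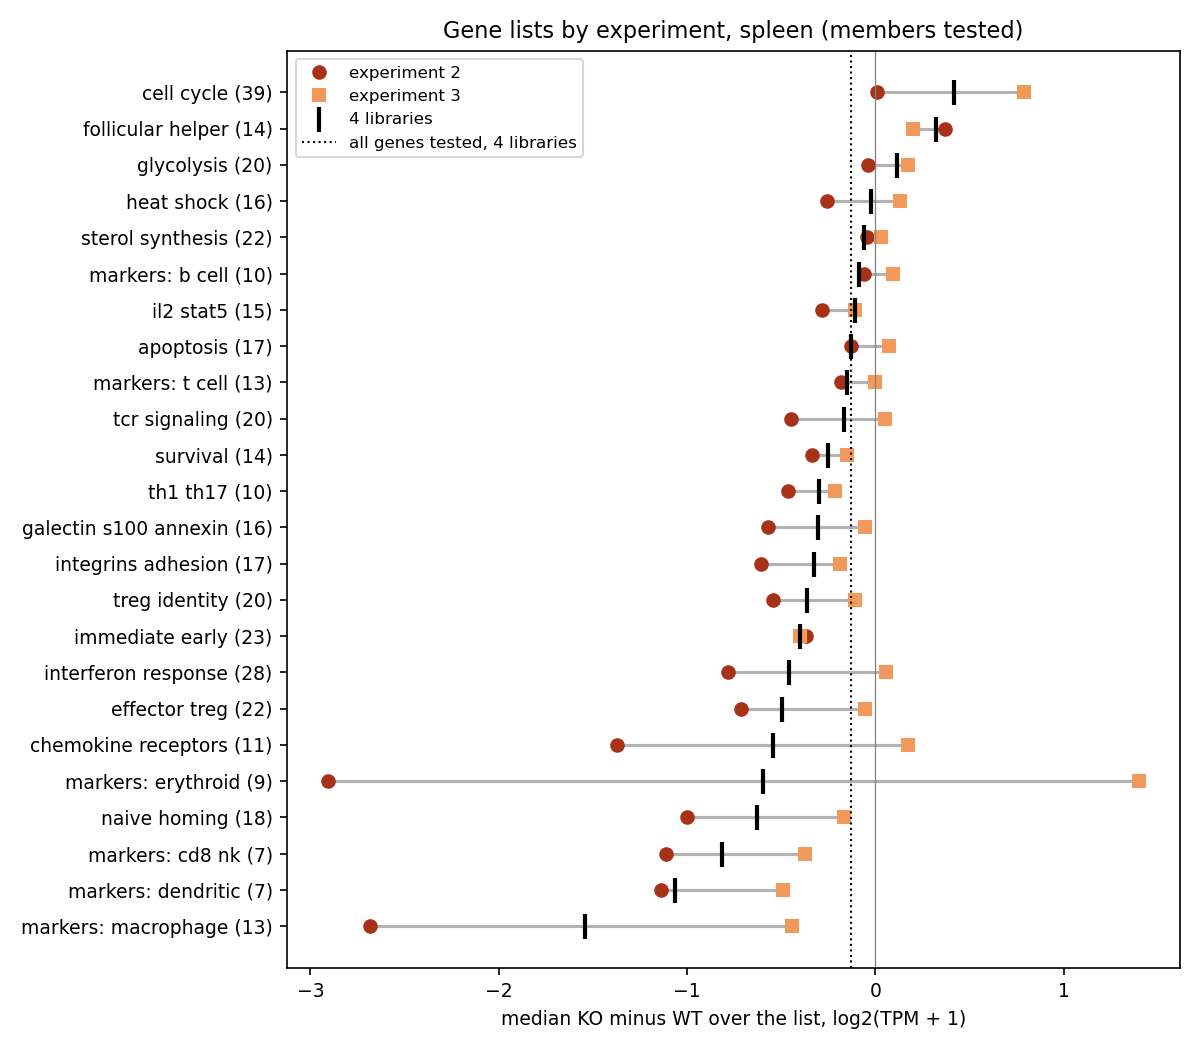
Median KO minus WT difference of log2(TPM + 1) over each gene list with at least 7 tested members (number tested in brackets), in experiment 2 (circle), experiment 3 (square) and over the 4 libraries (bar), beside the median of all genes tested (dotted line, -0.13). Macrophage markers are lowest (-1.54) and cell cycle genes highest (0.42), and most lists lie further from 0 in experiment 2 than in experiment 3.

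Of the Id and E-protein genes, 4 were tested, and beside Id2 the differences within experiments 2 and 3 were 0.57 and -0.17 for Id3, 0.21 and -0.0013 for Tcf3 and -0.24 and -0.36 for Tcf12. Id3, the relative of Id2 that is lost when naive Tregs become effector cells, stood at 322 and 276 TPM in WT against 478 and 245 TPM in KO. Tcf3, which encodes the E proteins E12 and E47, stood at 5.42 and 11.7 TPM in WT against 6.42 and 11.7 TPM in KO. Tcf12, which encodes HEB, stood at 9.07 and 11.3 TPM in WT against 7.55 and 8.59 TPM in KO. The limma difference was 0.20 (95% interval -0.72 to 1.12) for Id3, 0.10 (-1.17 to 1.38) for Tcf3 and -0.29 (-1.48 to 0.89) for Tcf12. The intervals of Tcf3 and Tcf12 hold differences larger than 1 log2 unit, or close to it, in either direction. That of Id3 holds a rise of more than 1 log2 unit but no difference below -0.72.

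The core Treg genes lay slightly lower in KO in most members. Over 20 Treg identity genes, 18 had a negative difference, 13 of them in both experiments (against 33.7% of all genes tested), and the median was -0.37. Foxp3 had the largest difference, -2.22 (SE 0.907, limma adjusted p = 1.0), which came from experiment 2 (-4.20) more than from experiment 3 (-0.23) and was 0.092 without KO spleen 2. Ctla4, the checkpoint receptor through which Tregs strip costimulatory ligands from dendritic cells, stood at 352 and 266 TPM in WT against 210 and 231 TPM in KO. Gpr83, a receptor enriched in Tregs, stood at 77.9 and 49.3 TPM in WT against 32.9 and 47.9 TPM in KO. These are the 2 of the 20 genes whose KO values both lay below both WT values (against 13.8% of all genes tested). The list median was 0.053 without KO spleen 2 and -0.84 without KO spleen 3.

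Effector Treg genes were low mainly in KO spleen 2. Over 22 genes the median was -0.71 in experiment 2 and -0.06 in experiment 3, and it was 0.016 without KO spleen 2. Gzmb, the granzyme with which effector Tregs and killer cells induce cell death, stood at 33.8 and 14.2 TPM in WT, at 1.29 TPM in KO spleen 2 and at 19.2 TPM in KO spleen 3. Klrg1, a receptor of terminally differentiated Tregs, stood at 313 and 284 TPM in WT, at 53.4 TPM in KO spleen 2 and at 306 TPM in KO spleen 3. Il1rl1, the receptor for interleukin-33 on tissue Tregs, stood at 6.00 and 8.37 TPM in WT against 1.03 and 6.51 TPM in KO. In each of these genes KO spleen 3 was within the WT range, and none passed limma's test (adjusted p = 1.0).

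Naive state and lymphoid homing genes lay lower in KO for most members, mainly in experiment 2. Klf2, the transcription factor that drives expression of homing receptors and exit from lymphoid organs, stood at 93.2 and 75.2 TPM in WT against 33.7 and 37.6 TPM in KO (-1.21, SE 0.424, limma adjusted p = 1.0). Its difference was -1.44 in experiment 2 and -0.98 in experiment 3, and it lay between -1.36 and -1.06 when any 1 library was left out. Klf3 stood at 46.9 and 40.7 TPM in WT against 13.6 and 33.4 TPM in KO. Foxo1, an activator of Klf2 and Il7r, named after its values were seen, stood at 35.8 and 56.1 TPM in WT against 19.8 and 32.1 TPM in KO. Bach2, a repressor that keeps T cells quiescent, also named after its values were seen, stood at 13.5 and 12.9 TPM in WT against 7.99 and 8.44 TPM in KO. Il7r, the receptor for the survival cytokine interleukin-7, stood at 133 and 190 TPM in WT against 41.6 and 149 TPM in KO. Over the 18 genes the median was -0.63, 9 had a negative difference in both experiments (against 33.7% of all genes tested), and 6 had both KO values below WT (against 13.8% of all genes tested). Dapl1, also on this list, went the other way. Without KO spleen 2 the list median was -0.076.

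Chemokine receptors gave unlike differences in the 2 experiments. Over 11 tested receptors the median was -1.37 in experiment 2 and 0.17 in experiment 3, and it was 0.12 without KO spleen 2. Ccr2, which guides cells to inflamed tissue, stood at 7.40 and 12.6 TPM in WT, at 0.444 TPM in KO spleen 2 and at 11.3 TPM in KO spleen 3. Ccr3, a receptor for eotaxins, stood at 6.74 and 8.79 TPM in WT, at 0.289 TPM in KO spleen 2 and at 7.07 TPM in KO spleen 3. Ccr6, which follows Ccl20 to mucosal sites, stood at 66.2 and 63.5 TPM in WT against 40.0 and 48.6 TPM in KO. Of these 3, Ccr6 alone had both KO values below both WT values.

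Follicular helper type genes, the program that Id proteins restrain, were higher in KO for most members. Of 14 genes, 10 had a positive difference and 8 were positive in both experiments (against 15.5% of all genes tested). For 5 the KO values lay above both WT values (against 5.7% of all genes tested). The median was 0.32, with 0.37 in experiment 2 and 0.20 in experiment 3, and it stayed between 0.22 and 0.60 when any 1 library was left out. None passed limma's test (adjusted p = 1.0 for each member named here), nor with the block (lowest adjusted p = 0.325). Il21, the cytokine with which follicular helper cells drive B cell responses, stood at 0 and 1.29 TPM in WT against 3.98 and 2.81 TPM in KO. Ascl2, a factor that starts follicular helper differentiation, stood at 1.07 and 1.22 TPM in WT against 4.45 and 2.75 TPM in KO. Angptl2, a secreted protein found in these cells, stood at 2.08 and 10.2 TPM in WT against 11.4 and 13 TPM in KO. Pdcd1, the receptor PD-1, stood at 86.1 and 83.8 TPM in WT against 121 and 147 TPM in KO, so it had the tightest WT pair of the 4. The defining members did not differ in this way: Bcl6, the lineage repressor, stood at 2.96 and 5.06 TPM in WT against 2.94 and 3.81 TPM in KO, and the homing receptor Cxcr5 stood at 40.0 and 39.3 TPM in WT against 28.4 and 53.0 TPM in KO.

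Among genes of Th1 and Th17 cells, 3 of 10 had a positive difference. Ifng, the cytokine of Th1 cells, stood at 6.19 and 9.95 TPM in WT, at 64.5 TPM in KO spleen 2 and at 12.3 TPM in KO spleen 3. Its difference was 1.73 over the 4 libraries and 0.58 without KO spleen 2.

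Genes of the T cell receptor pathway showed no common direction that held across scalings. Over 20 genes the median was -0.17, and it was 0.053 with libraries centred on their medians. Cd3e, a chain of the receptor complex, stood at 266 and 688 TPM in WT, at 67.3 TPM in KO spleen 2 and at 833 TPM in KO spleen 3. Lck, the kinase that starts the signal, stood at 998 and 965 TPM in WT against 631 and 964 TPM in KO. KO spleen 2 was the lowest library for both genes. T cell markers summed to 13240 TPM there, but their median level was also lowest there. On the log2(TPM + 1) scale it was 8.18, against 8.78 to 9.35 in the other libraries.

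Immediate early genes, which follow receptor signals and cell handling within minutes, were lower in KO to a similar extent in both experiments. Over 23 genes the median was -0.40, with -0.37 in experiment 2 and -0.40 in experiment 3, against -0.24 and -0.02 over all genes. Both differences were negative for 13 genes (against 33.7% of all genes tested), and for 7 the KO values lay below both WT values (against 13.8% of all genes tested). Jun, a subunit of the AP-1 factor, stood at 3.77 and 20.2 TPM in WT against 0.668 and 1.39 TPM in KO (-2.33, SE 0.712, limma adjusted p = 1.0, with the block 0.052). Dusp2, a phosphatase that shuts off MAP kinases, stood at 69.7 and 89.4 TPM in WT against 43.2 and 36.7 TPM in KO. Dusp5, a phosphatase of the kinase ERK, stood at 22.6 and 21.6 TPM in WT against 8.53 and 15.4 TPM in KO. Fos, the partner of Jun, stood at 6.11 and 15.2 TPM in WT against 6.48 and 2.21 TPM in KO, so it was lower only in experiment 3. Leaving out any 1 library gave list medians from -0.67 to -0.16.

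Genes of interleukin-2 signaling and of survival gave small differences. Pim1, a survival kinase induced through STAT5, stood at 31.3 and 97.1 TPM in WT against 9.58 and 42.7 TPM in KO, lower by 1.61 and 1.17 log2 units in experiments 2 and 3 while the groups overlapped. Cish, a feedback inhibitor of cytokine receptors, stood at 54.1 and 64.0 TPM in WT against 27.0 and 57.4 TPM in KO. The 15-gene list had a median of -0.11, which became 0.11 with libraries centred on their medians. Mcl1, a BCL2 relative that Tregs need to survive, stood at 124 and 108 TPM in WT against 89.1 and 69.2 TPM in KO. Bcl2 stood at 40.2 and 52.6 TPM in WT against 33.1 and 39.0 TPM in KO. The A1 genes Bcl2a1b and Bcl2a1d are near copies of each other, so their split values are uncertain. Bcl2a1d stood at 99.5 and 176 TPM in WT, at 316 TPM in KO spleen 2 and at 163 TPM in KO spleen 3. Over 14 survival genes the median was -0.25, and it lay between -0.70 and 0.13 when any 1 library was left out, turning positive without KO spleen 2.

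Cell cycle genes were higher most clearly in the KO library of experiment 3. Of 39 genes tested, 38 had a positive difference over the 4 libraries, beside 4152 of the 11780 genes tested. The median was 0.42, but it was 0.01 in experiment 2 and 0.79 in experiment 3. Both differences were positive for 19 of the 39 (against 15.5% of all genes tested), none was negative in both (against 33.7% of all genes tested), and for 7 the KO values lay above both WT values (against 5.7% of all genes tested). The list median was 1.11 without KO spleen 2, -0.28 without KO spleen 3 and 0.066 without WT spleen 2. None passed limma's test (adjusted p = 1.0 for each member named), nor with the block (lowest adjusted p = 0.675). Erythroid markers were also higher in KO spleen 3 than in WT spleen 3: their median difference was -2.91 in experiment 2 and 1.40 in experiment 3, where they summed to 108314 TPM in KO and 46858 TPM in WT. Their part in the result was not tested.

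Of the 4 members with the smallest p, Tyms, Dut and Tk1 act in nucleotide supply for DNA synthesis. Tyms, thymidylate synthase, stood at 19.5 and 20.1 TPM in WT against 37.2 and 38.5 TPM in KO (0.90, SE 0.458), and its difference was 0.89 in experiment 2 and 0.91 in experiment 3. Dut, which clears dUTP and supplies the substrate of thymidylate synthase, stood at 69.2 and 72.7 TPM in WT against 147 and 92.1 TPM in KO. Tk1, thymidine kinase, stood at 9.54 and 17.7 TPM in WT against 21.4 and 24.2 TPM in KO. Cdk1, the kinase that starts mitosis, stood at 21.1 and 18.2 TPM in WT against 28.2 and 44.1 TPM in KO. Plk1, a mitotic kinase named after its values were seen, was highest in KO spleen 3, at 13.1 and 16.8 TPM in WT and 6.89 and 36.3 TPM in KO. Genes of glycolysis, which dividing T cells use, had a median of 0.12 over 20 members, which was -0.22 without KO spleen 3 and -0.04 without WT spleen 2, with Gapdh, a central enzyme of the pathway, at 159 and 208 TPM in WT and 344 and 228 TPM in KO. Tpi1, triosephosphate isomerase, stood at 106 and 134 TPM in WT against 150 and 192 TPM in KO.

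**Figure D5:**
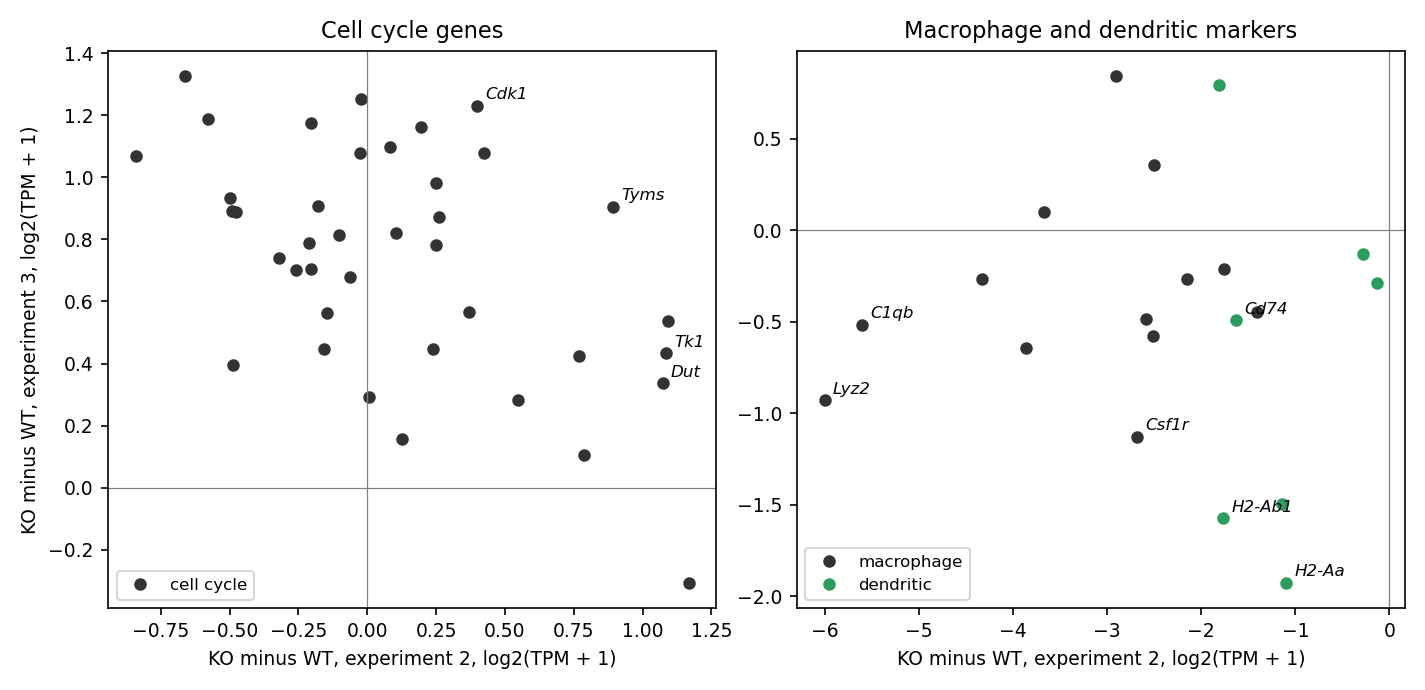
KO minus WT difference of log2(TPM + 1) in experiment 2 (x axis) and experiment 3 (y axis) for the 39 cell cycle genes (left) and for the 13 macrophage and 7 dendritic cell markers tested (right), with 1 point per gene. All but 1 of the cell cycle genes lie above 0 in experiment 3 and 20 of 39 do in experiment 2, while all macrophage markers lie below 0 in experiment 2.

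Promoters of genes of late cell cycle phases often hold a CCAAT box and the cell cycle homology region, which the DREAM and MuvB complexes bind. The Cdk1 window (chr10:69352863-69353162, minus strand, RefSeq GRCm38.p6) is shown because it holds both motifs, with CCAAT and TTTGAA on both strands in capitals.
Cdk1: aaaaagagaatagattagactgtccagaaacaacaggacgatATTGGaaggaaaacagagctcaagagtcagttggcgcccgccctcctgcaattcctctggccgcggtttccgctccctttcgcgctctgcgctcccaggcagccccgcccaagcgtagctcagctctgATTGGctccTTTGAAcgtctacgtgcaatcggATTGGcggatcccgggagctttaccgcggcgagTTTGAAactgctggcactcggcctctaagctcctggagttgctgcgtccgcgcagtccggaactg
The window holds 5 matches in all, and the Tyms window, searched in the same way, holds none. Over the 33 RefSeq windows of the 31 list genes that matched, 42.4% hold TTTGAA, against 17.9% of all 32851 windows, and 81.8% hold CCAAT, against 37.4%. The list holds tested genes only, and over the 10668 windows of tested genes the shares were 12.2% for TTTGAA and 38.4% for CCAAT. These matches describe the list and its windows, and no data on binding were used.

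Interferon response genes were low mainly in KO spleen 2. Over 28 genes the median was -0.78 in experiment 2 and 0.06 in experiment 3, and it was 0.041 without KO spleen 2. Igtp, an interferon-induced GTPase, stood at 475 and 286 TPM in WT against 200 and 305 TPM in KO. Usp18, which removes the modifier Isg15, stood at 119 and 62.1 TPM in WT against 44.9 and 71.8 TPM in KO. Irf7, the amplifier of interferon production, stood at 32.0 and 44.4 TPM in WT, at 9.25 TPM in KO spleen 2 and at 49.2 TPM in KO spleen 3. Ddx60, a helicase of the antiviral response, stood at 9.43 and 14.2 TPM in WT against 3.17 and 9.83 TPM in KO.

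Of the remaining lists, S100 proteins, annexins and galectins had a median of -0.30 over 16 genes and integrins and adhesion genes of -0.33 over 17. Without KO spleen 2 these medians were -0.076 and -0.091. S100a4, a calcium-binding protein of motile and memory cells, stood at 208 and 391 TPM in WT, at 41.1 TPM in KO spleen 2 and at 213 TPM in KO spleen 3. Anxa1, an anti-inflammatory annexin, stood at 13.4 and 11.3 TPM in WT against 5.50 and 5.67 TPM in KO. Icam1, the ligand of the integrin LFA-1, stood at 38.8 and 89.5 TPM in WT against 19.2 and 55.0 TPM in KO. Heat shock, sterol synthesis and apoptosis genes had medians of -0.03, -0.06 and -0.13, each of which turned positive with libraries centred on their medians. Of 16 heat shock genes tested, 7 had a positive and 9 a negative difference. The difference was negative in both experiments for 3 (against 33.7% of all genes tested). Hspe1 stood at 274 and 264 TPM in WT, at 723 TPM in KO spleen 2 and at 232 TPM in KO spleen 3. Hspa1a and Hspa1b, near copies that encode the inducible Hsp70, were lower in KO in both experiments, at low values. Hspa1a stood at 1.64 and 1.40 TPM in WT against 0.821 and 0.0598 TPM in KO. Hspa1b stood at 4.40 and 3.64 TPM in WT against 3.47 and 0.401 TPM in KO.

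The genotype effect in adipose tissue was compared with that in spleen by an interaction term over all 8 libraries. It passed limma's test for 4 of 13376 genes (0.0299%), namely Nkain4, Upk1b, Serping1 and Igfbp6, and for none of the genes described above from the spleen comparison (lowest adjusted p = 0.155 for Igkv4-91 and 0.355 for Tyms). Cell cycle genes had a median of 0.42 in spleen and -1.63 in adipose tissue, and macrophage markers -1.54 in spleen and 3.20 in adipose tissue. Macrophage markers summed to 11131 TPM in 1 adipose library, KO adipose 3, and to at most 37.0 TPM in the other 3. All 4 genes called had a higher difference in adipose tissue than in spleen. These calls were lost when any 1 of the spleen or WT adipose libraries was left out, and more genes were called without KO adipose 2. Without KO adipose 3, the library with the highest macrophage marker sum, most genes called were instead lower. With the experiment as a block the interaction passed for 0 genes, with 661 genes at an unadjusted p below 0.05. Stromal and endothelial markers summed to 464 and 3821 TPM in the KO adipose libraries, against 6.04 and 86.4 TPM in the WT ones, and their part in the 4 genes called was not tested.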

How the data were processed

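Gene levels of the 4 spleen libraries were taken from 1 deposited table of all 8 libraries, in which the authors give TPM, a length-corrected share of transcripts, identified from the values because each column sums to 1000000. The submitters' processing notes name mm9. The aligner, counter, annotation and handling of strand were not stated in any source used here. Read depth cannot be had from TPM, so it is unknown for each library and counting intervals are not given. A value of 0 is a value listed at 0. Of the gene names, 92.1% match GENCODE M21, and 27 that a spreadsheet turned into dates were counted but not named.

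The 2 KO and 2 WT libraries entered a limma fit (version 3.58.1, R 4.3.3) on log2(TPM + 1), with a trend in the variance, over genes at 1 TPM or more in at least 2 of the 4 libraries. The fit had 2 residual degrees of freedom and 14.4 prior ones. P-values are two-sided and adjusted by Benjamini-Hochberg over all genes tested (threshold 0.05), and SE is limma's moderated error. Fold changes on this scale understate those of low genes. Genes were also counted as shifted when the difference was at least 1 in each experiment, in 1 direction and without overlap. The fits were tested on simulated data.

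The file headers call the numbers 2 and 3 experiments, so libraries of 1 number were taken as a pair. WT 3 minus WT 2 and KO 3 minus KO 2 correlated across tested genes with r = 0.401. The main fit has no block, and values with the block are given where they change a call.

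Named are Id2, Foxp3 and the tested Id and E-protein genes, then up to 14 shifted genes in each direction at 10 TPM or more in both libraries of the higher group, then up to 4 members of each of the lists described, by smallest p. Receptor segments, predicted genes, ribosomal and mitochondrial genes are counted and not named under this rule. The members, the 30 lists and the rule were chosen with earlier results of these data known. Alternatives were 2 other pseudocounts, 2 other filters, 2 scalings, the block, the trend, library weights, the spread of all 8 libraries and leaving out each library. Removal of hemoglobin, mitochondrial and receptor segment genes was added after the data were seen. Sequences come from GENCODE M21 transcripts (GRCm38) and RefSeq promoter windows (GRCm38.p6), and the table itself gives no positions. The values of 1 further gene that the rule names are not reported here.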

Additional observations from a re-analysis of the deposited data

How the results depend on the processing

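The number of genes that limma called, 2, was small under every setting except the replicate block and some fits without 1 library. It was 1 with a pseudocount of 0.1, 1 with a pseudocount of 5 and 1 with no trend in the variance. It was 0 with no filter, with quantile normalization, with libraries centred on their medians and with the spread of all 8 libraries, where 436, 287, 264 and 65 genes had an unadjusted p below 0.05. It was 4 with a filter of 5 TPM, and between 4 and 219 when 1 library was left out. With hemoglobin, mitochondrial and receptor segment genes removed, an alternative chosen after seeing the data, it was 3, of which 1 was higher and 2 were lower in KO, and both kappa segments are then absent by construction. With the replicate block, which takes the experiment number as a pairing, it was 16, of which 11 are among the genes described, given with their values beside the block. The count of genes shifted in both experiments, 107, was 226 with a pseudocount of 0.1, 24 with a pseudocount of 5 and 43 with a filter of 5 TPM. Id2 lay between -2.08 and -0.22 when 1 library was left out. The interaction passed for 0 genes with a pseudocount of 0.1 and with the replicate block (408 and 661 at an unadjusted p below 0.05), and for 0 to 79 when 1 library was left out. Of 89 genes for which each alternative was computed, 11 changed sign when some 1 library was left out. Of these, Bcl6 and Cxcr5 also did so with quantile normalization (0.014 and 0.12) and with libraries centred on their medians (0.048 and 0.19). With 1 library left out, their lowest and highest differences were -4.53 and 0.092 for Foxp3, -0.28 and 0.68 for Id3, -0.39 and 0.60 for Tcf3, -2.46 and 0.037 for Klrg1, -2.89 and 0.20 for Ccr2, -1.92 and 0.37 for Irf7, -2.65 and 0.96 for Cd3e, -1.81 and 2.39 for Cd79a, -1.01 and 1.23 for Plk1, -0.48 and 0.14 for Bcl6, and -0.47 and 0.41 for Cxcr5. KO spleen 2 is the library whose removal turned 8 of these 11. The cause of these changes was not tested. With 1 library of a group left out, the lone library is assumed to vary like the pair of the other group. TPM keeps no depth, so what depth limits cannot be stated.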
